A study of Mus musculus with 75 samples.

Results

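Rows of the count table for Cfd, Car3, Thrsp, Hp, Adipoq, Plin1, Fabp4, Cidec and Retn were followed through every kidney library to see whether fat cell transcripts moved together in them. The 9 genes were chosen by symbol out of 32245 in the table. Cfd, Car3, Thrsp and Hp were picked because they differed between ABTAA and IgG mice in a few libraries, and the other 5 because fat cells are known for them, so the values of the ABTAA arm are given here without a test. Tests are given for the Veptp and Pdgfb arms, whose values were not the stated reason for the choice, although it was made with earlier results of the whole series known.

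Fat lies around the kidney and in the hilum, where the ureter and the vessels enter, and it can come along when a kidney is dissected. Its cells store triglyceride in a droplet that PLIN1 coats and CIDEC helps to enlarge, and they secrete adiponectin (Adipoq), adipsin or complement factor D (Cfd) and, in mice, resistin (Retn). FABP4 carries fatty acids in fat cells and also in capillary endothelium and macrophages. Carbonic anhydrase 3 (Car3) is abundant in fat, skeletal muscle and liver, THRSP promotes fatty acid synthesis, and haptoglobin (Hp), which binds free hemoglobin, is an acute phase protein made in liver and in fat.

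RNA came from whole kidneys of adult mice, 3 days after unilateral ureter obstruction (UUO), a model of progressive kidney disease, with the contralateral kidney (CL) as control. There were 75 libraries in 12 groups. In the ABTAA arm, C57BL6/J mice or wild type mice of the other crosses were injected with either ABTAA, an antibody that clusters ANGPT2 and so activates TIE2 (7 CL and 7 UUO libraries), or human IgG Fc (8 and 8). In the Veptp arm, Veptp iECKO mice (6 and 8) had lost floxed Veptp after tamoxifen through Cdh5-CreERT2, which acts in endothelium. Their Veptp WT controls (7 and 8) were Veptp wt/lox littermates that carried the same Cre but were not induced. In the Pdgfb arm, Pdgfb iKO mice (4 and 4) carried Actb-CreERT2, which acts in the whole body, and the Pdgfb WT controls (4 and 4) were wt/lox or lox/lox littermates without Cre, with tamoxifen given shortly before surgery. The genetic crosses were on a mixed background, both sexes were used, and the Pdgfb WT CL group included sham-operated kidneys that the labels do not mark. The methods describe removal of the renal capsule for histology, while the dissection of fat before RNA extraction was not given in the sources used here.

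Total counts ran from 172827 to 2341800 per library, with a median of 757897, so 3 counts, the limit that a count of 0 allows, stood for different levels in different libraries. Library names took 2 forms, 45 plain (such as A5) and 30 joined (such as G_3), and every group but those of the Pdgfb arm held both. What the forms mark is not stated. In the Veptp arm the numbers 3, 4, 7 and 8 stand on libraries of opposite genotypes in the 2 kidneys. Ptprb, the gene of VEPTP, ran from 28.5 to 84.1 CPM (counts scaled to library size) in Veptp WT CL and from 26.9 to 45.2 CPM in Veptp iECKO CL, and overlapped in UUO kidneys too. Pdgfb ran from 4.43 to 19.9 CPM in Pdgfb WT CL and from 16.6 to 24.9 CPM in the CL libraries labelled Pdgfb iKO. It was thus not lower there, although the label says knockout. In UUO kidneys it ran from 43.2 to 57.8 CPM in Pdgfb WT and from 33.4 to 40.6 CPM in Pdgfb iKO. By its own measurement the paper reported less Pdgfb in both kidneys of Pdgfb iKO mice.

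RefSeq (GRCm38.p6) had promoter entries for 6 of the 9 genes. The 250 bases before the start are shown for Adipoq and Cfd, whose levels are compared throughout, and for Cidec and Retn, which belong to the same fat cell group. Capitals mark matches on either strand to the motif of C/EBP factors, which drive fat cell genes, searched as TTNNGNAA, or to the CCAAT box, searched as CCAAT. Both strands were searched, and the motifs did not overlap in these windows. RefSeq holds 2 starts for Cidec, of which the upstream one is shown. The window of the other (chr6:113434765-113435014) held 1 TTNNGNAA site and is not printed.
Adipoq, chr16:23146286-23146535, plus strand: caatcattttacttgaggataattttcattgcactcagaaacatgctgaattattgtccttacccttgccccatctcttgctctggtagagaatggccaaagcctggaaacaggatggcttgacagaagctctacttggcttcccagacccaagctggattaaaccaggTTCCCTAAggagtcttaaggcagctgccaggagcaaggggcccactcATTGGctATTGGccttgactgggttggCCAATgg
Cidec, chr6:113435761-113436010, minus strand: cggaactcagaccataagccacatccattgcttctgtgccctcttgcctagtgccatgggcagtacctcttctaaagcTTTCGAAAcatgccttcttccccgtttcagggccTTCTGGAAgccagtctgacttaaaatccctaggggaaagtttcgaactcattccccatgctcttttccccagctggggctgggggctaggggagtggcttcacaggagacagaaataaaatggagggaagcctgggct
Cfd, chr10:79890603-79890852, plus strand: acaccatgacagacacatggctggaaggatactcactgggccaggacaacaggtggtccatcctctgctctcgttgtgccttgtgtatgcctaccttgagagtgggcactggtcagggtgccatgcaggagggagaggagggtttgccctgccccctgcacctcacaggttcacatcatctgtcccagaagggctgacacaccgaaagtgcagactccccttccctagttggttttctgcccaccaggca
Retn, chr8:3655520-3655769, plus strand: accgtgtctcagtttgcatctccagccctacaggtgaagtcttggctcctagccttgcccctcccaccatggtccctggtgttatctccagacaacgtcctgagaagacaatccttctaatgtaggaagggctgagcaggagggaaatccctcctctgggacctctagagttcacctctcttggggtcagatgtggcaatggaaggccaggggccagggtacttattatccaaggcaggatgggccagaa
TTNNGNAA was found in 36.8% of all 32851 promoter windows and CCAAT in 33.8%. TATAAA, the TATA box, stood in 12.4% and AGGTCA, a nuclear receptor site, in 14.0%, and neither was in these 4 windows. The Adipoq window held 1 TTNNGNAA and 3 CCAAT matches, Cidec held 2 sites of TTNNGNAA, and Cfd and Retn held none of the motifs. Matching letters are a description of the window only.

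The defining fat cell transcripts were rare and unevenly spread. Adipoq (chr16:23146536-23158028, plus strand, GRCm38) had a count in 51 of 75 libraries, 375 counts in all and at most 61 in a library. Its level ran from 0 to 43.5 CPM, with a median of 2.97 CPM over all libraries. Plin1 (chr7:79720218-79732903) had a count in 26 libraries and 57 counts in all, with a highest level of 9.20 CPM in library G_3 of Veptp iECKO CL. Cidec (chr6:113424634-113435760) had a count in 48 libraries and reached 39.5 CPM, again in G_3. Each group held libraries with and libraries nearly or wholly without these transcripts.

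The secreted products followed the same libraries. Cfd (chr10:79890853-79892655) had a count in 59 libraries, 2202 counts in all, and reached 297 CPM in library D6 of IgG UUO. Retn (chr8:3655770-3660110) had a count in 40 libraries and was also highest in D6, at 41.7 CPM. Adipoq and Cfd were both present in 48 libraries and both absent in 13. The 3 libraries with Adipoq and no Cfd held no more than 1 Adipoq count each, and the 11 with Cfd and no Adipoq held no more than 8 Cfd counts. All 9 genes had a count in 16 libraries, and 8 libraries had none of Adipoq, Plin1, Cidec, Cfd and Retn.

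**Figure D1:**
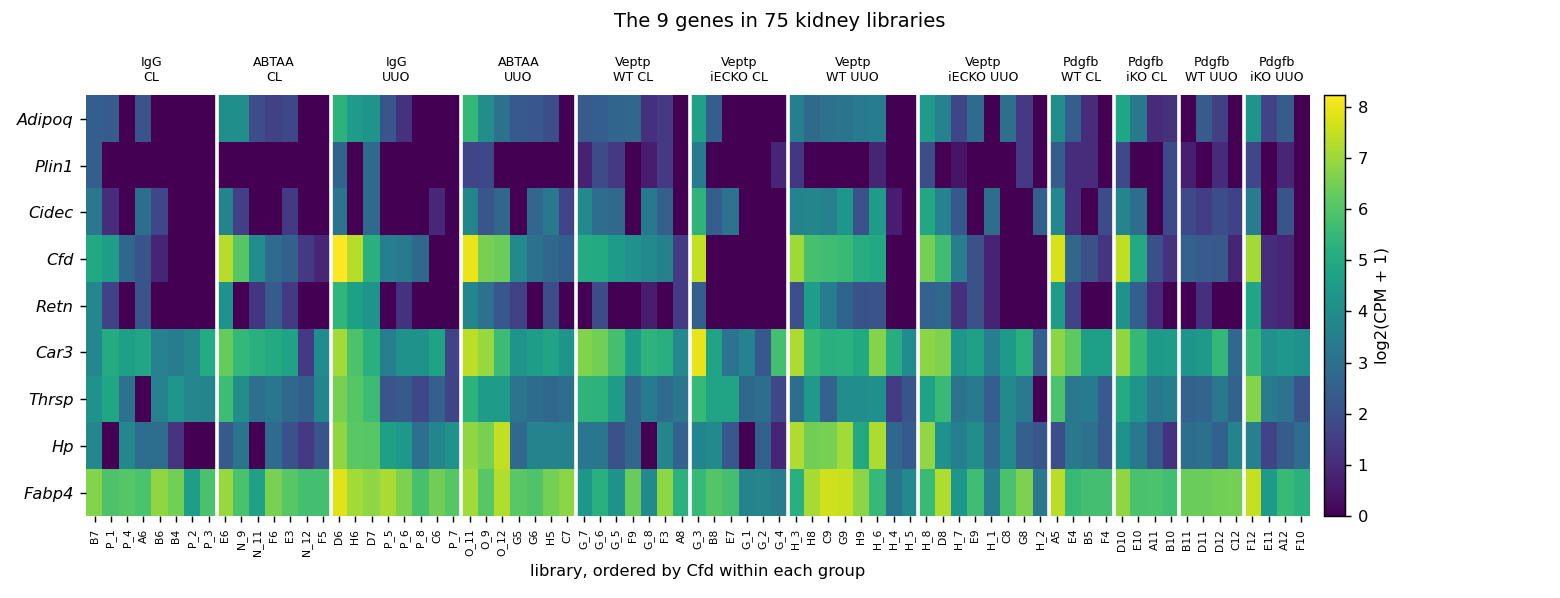
Level of the 9 genes, as log2(CPM + 1) in color, in each of 75 libraries (columns), arranged by group and, within a group, by falling Cfd. In most groups the libraries at the left, with Cfd up to 297 CPM, also stand out in Adipoq, Retn, Car3 and Thrsp, while Fabp4 is present in every library.

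Car3, Thrsp, Hp and Fabp4 were counted in nearly every kidney, and their highest libraries were in part those with the most Adipoq and Cfd. Car3 (chr3:14863512-14872523) had a count in all 75 libraries and reached 241 CPM in G_3. Thrsp (chr7:97412938-97417730) had a count in 73 and reached 102 CPM in library F12 of Pdgfb iKO UUO. Hp (chr8:109575128-109579172) had a count in 69 and reached 174 CPM in library O_12 of ABTAA UUO. Fabp4 (chr3:10204088-10208576) had a count in all 75, with 4142 counts in all and a highest level of 224 CPM in D6. For Hp and Fabp4 other libraries stood high too. A5, with 11 Adipoq counts, had the lowest Hp of Pdgfb WT CL (2.95 CPM), and Fabp4 was highest in B8 among Veptp iECKO CL (63.2 CPM) and in C9 among Veptp WT UUO (195 CPM). In bulk samples, fewer cells of a type and less RNA per cell cannot be told apart.

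In the ABTAA arm, which supplied the choice of the genes, a few libraries of each group stood high. Cfd ran from 0 to 31.1 CPM (median 2.12) in the 8 IgG CL libraries and from 0.837 to 162 CPM (median 6.28) in the 7 ABTAA CL libraries. In UUO kidneys it ran from 0 to 297 CPM (median 9.85) with IgG and from 4.54 to 253 CPM (median 14.0) with ABTAA. The groups overlapped over most of their ranges, and the highest were E6 and N_9 in ABTAA CL, D6, H6 and D7 in IgG UUO, and O_11, O_9 and O_12 in ABTAA UUO. The same 3 IgG UUO libraries were the highest of their group in Adipoq (18.1 to 39.1 CPM, the other 5 at 3.48 CPM or less) and in Thrsp (48.3 to 91.2 CPM, the other 5 at 4.71 CPM or less). The 3 ABTAA UUO libraries were likewise the highest of theirs in Hp (92.3 to 174 CPM, the other 4 at 12.1 CPM or less) and in Car3 (48.6 to 168 CPM, the other 4 at 26.7 CPM or less). These 3 are all the joined-name libraries of ABTAA UUO and the other 4 are the plain ones, while D6, H6 and D7 have plain names. The summed level of 13 other acute phase genes was also higher in these 3, at 3546 to 4029 CPM against 1473 to 2026 CPM. The part of the name form in these levels was not tested.

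As a description of those libraries, the fitted ABTAA to IgG log2 fold change of Cfd was 2.35 ± 1.17 (SE) in CL and 0.17 ± 0.90 in UUO kidneys. Without library E6 the CL value was 0.96, and without D6 the UUO value was 1.35, and without O_11 it turned to -0.77, so single libraries set them. Thrsp likewise turned from 0.01 to -0.71 in CL kidneys without E6 and from -0.45 to 0.31 in UUO kidneys without D6. The values for the CL kidneys were 0.68 for Car3, 0.01 for Thrsp, -0.27 for Hp and -0.07 for Fabp4, and for the UUO kidneys 0.81, -0.45, 0.75 and -0.21. With the Adipoq level of each library as a covariate, the Cfd values were 0.05 and 0.10. From CL to UUO kidneys of ABTAA mice, Cfd had a log2 fold change of 0.94, or 0.23 with the paired library numbers as a block, and Hp one of 4.08, or 3.53 with the block. In IgG mice Cfd had 3.12 ± 1.14, or 1.94 without D6, and Hp 3.06 ± 0.75, or 2.55 without D6.

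**Figure D2:**
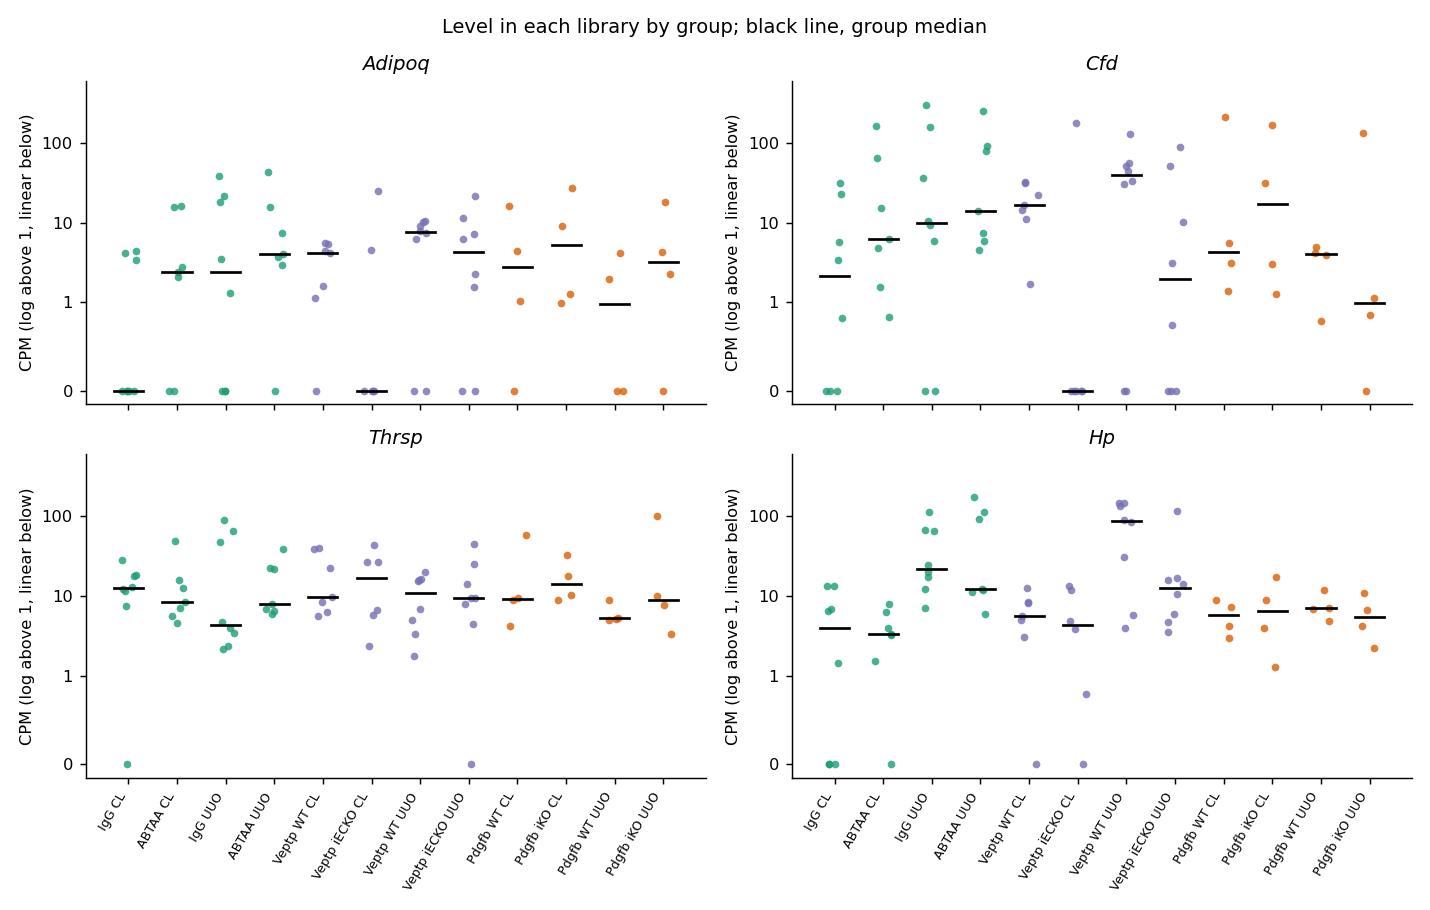
Level of Adipoq, Cfd, Thrsp and Hp in CPM (vertical axis, logarithmic above 1 and linear below) in each library (points) of the 12 groups, with the group median as a black line. Single libraries far above their group's median recur for Adipoq, Cfd and Thrsp in both kidneys, while Hp is higher in many UUO libraries of the ABTAA and Veptp arms.

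Whether the genes moved together was tested in the Veptp and Pdgfb arms. Each gene's log2 level was regressed on the log2(CPM + 1) of Adipoq across libraries, within groups and, in the Veptp arm, within forms of the library name, and p-values were adjusted over all genes tested (edgeR quasi-likelihood test). The filter on low counts left 6 of the 9 genes in the Veptp arm (29 libraries, 11916 genes tested) and 4 in the Pdgfb arm (16 libraries, 10923 genes tested). Adipoq, Plin1 and Retn passed in neither arm, and Hp and Cidec did not in the Pdgfb arm. Adipoq itself was under 3 counts in 17 Veptp and 9 Pdgfb libraries, so its level was imprecise in most of them.

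In the Veptp arm, the 6 genes that could be tested had the 6 smallest p-values of all 11916. Cfd rose by 1.62 ± 0.11 log2 units (SE) per log2 unit of Adipoq (adjusted p = 1.6e-14, edgeR). The slope was 1.03 ± 0.11 for Hp (adjusted p = 3.6e-08), 0.70 ± 0.08 for Car3 (5.6e-07) and 0.86 ± 0.11 for Cidec (6.2e-06). For Fabp4 it was 0.44 ± 0.06 (6.2e-06) and for Thrsp 0.68 ± 0.09 (2.4e-05). In all, 10 genes had a positive slope at an adjusted p under 0.05, or 0.0839% of those tested, and the slopes of all genes lay between -0.17 and 0.18 from the 1st to the 99th percentile. All 6 stayed past the threshold with each of the 29 libraries left out in turn, but 2 of them passed in the CL libraries alone and 2 after thinning to equal depth. With the library number as a block, Cfd (1.38, adjusted p = 1.0e-05, edgeR) and Car3 (0.60, 0.0027) passed. Cidec, Thrsp, Hp and Fabp4 then did not (adjusted p from 0.25 to 0.50). Without the numbers 3, 4, 7 and 8, Cfd (1.63, adjusted p = 3.7e-04) and Car3 (0.79, adjusted p = 0.00129) passed, and Hp (0.83, adjusted p = 0.18), Thrsp (0.81, 0.18) and Fabp4 (0.36, 0.60) did not, while Cidec no longer passed the filter. Without G_3 and H_8, the 2 libraries highest in Adipoq, left out after seeing the data, 5 of the 6 passed, with slopes from 0.40 for Fabp4 to 1.54 for Cfd, and Cidec did not (0.69, adjusted p = 0.38).

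In the Pdgfb arm, 3 of the 4 genes tested had the 3 smallest p-values of 10923. The slope on Adipoq was 1.90 ± 0.17 for Cfd (adjusted p = 5.2e-08, edgeR), 0.57 ± 0.08 for Car3 (9.1e-04) and 0.82 ± 0.12 for Thrsp (0.0010). Fabp4, with a slope of 0.37 ± 0.08, did not pass (adjusted p = 0.19). These 3 were the only genes in the arm with a positive slope past the threshold, or 0.0275% of those tested. Cfd and Car3 stayed past the threshold with each of the 16 libraries left out in turn, and Thrsp missed it without A5 of Pdgfb WT CL (slope 0.73, adjusted p = 0.0501). Without both A5 and F12 of Pdgfb iKO UUO, chosen after seeing the data, no gene was called, Car3 had a slope of 0.60 (adjusted p = 0.068), and Cfd and Thrsp no longer passed the filter.

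**Figure D3:**
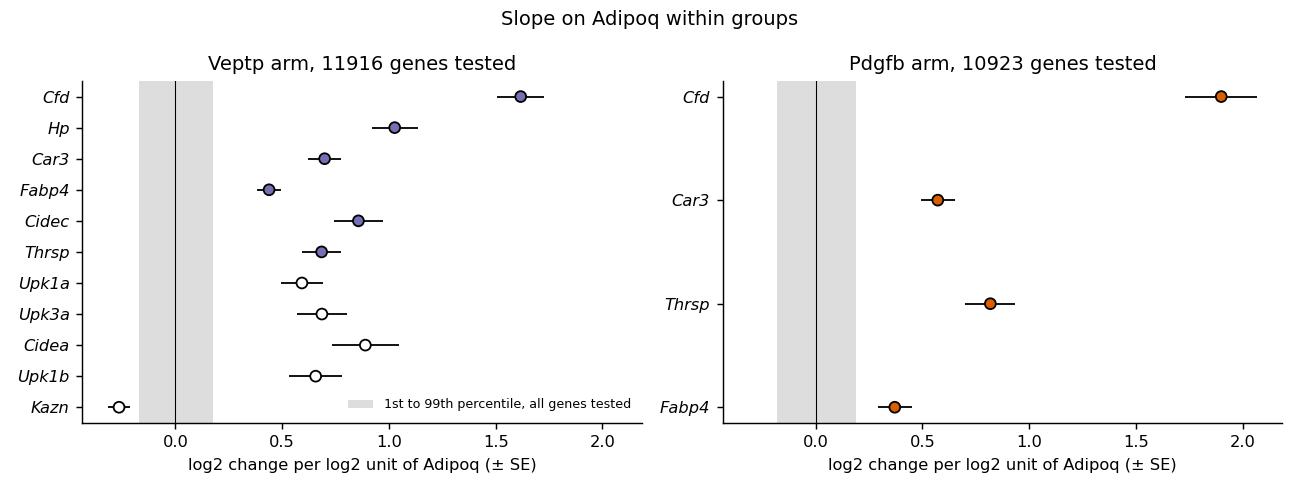
Change in each gene's log2 level per log2 unit of Adipoq (horizontal axis, point and SE) within groups in the Veptp and Pdgfb arms, for the members tested (filled) and any other gene past the threshold (open). The grey band holds the slopes from the 1st to the 99th percentile of all genes tested, and Cfd lies farthest from it, at 1.62 and 1.90.

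All 8 genes could be compared with Adipoq by correlation of log2(CPM + 1) after group and name form means were removed. This gave 16 correlations, with p-values from 100000 permutations of libraries within groups and name forms, adjusted over the 16. The permutations took libraries as separate, although CL and UUO libraries come largely from the same mice. Across the 29 Veptp libraries, Cfd had r = 0.90 and rho = 0.81 (permutation test, adjusted p = 5.4e-04 and 0.0015). The rho of the other 7 ran from 0.47 for Retn to 0.76 for Hp, and all 8 passed at an adjusted p under 0.05 by r and by rho. Without G_3 and H_8, which lay farthest from the median in centred Adipoq and were left out after seeing the data, r was 0.81 for Cfd, 0.77 for Hp, 0.68 for Fabp4, 0.64 for Car3, 0.53 for Thrsp and 0.51 for Cidec. It was 0.37 for Retn and 0.28 for Plin1. By rho Retn fell to 0.25, Cidec to 0.26 and Plin1 to 0.34, so these 3 rested in large part on those libraries, and the other 5 lay between 0.47 and 0.70. Across the 16 Pdgfb libraries, rho was 0.89 for Retn, 0.88 for Cfd, 0.85 for Thrsp and 0.84 for Car3, each past the threshold, and 0.68 for Cidec and 0.58 for Fabp4, also past it. Plin1 had rho = 0.55 (permutation test, adjusted p = 0.077) and r = 0.60 (adjusted p = 0.048). Hp had rho = 0.32 (permutation test, adjusted p = 0.31), and its r of 0.38 was -0.06 without D10 and F12, the 2 libraries highest in Adipoq. The r of the other 6 genes ran from 0.68 to 0.91, and without those 2 libraries it was 0.46 for Fabp4 and 0.61 to 0.86 for the other 5, while that of Plin1 was 0.41. Without A5 and D10, the farthest from the median in centred Adipoq, r ran from 0.37 for Plin1 to 0.85 for Retn, with 0.41 for Hp and 0.50 for Fabp4, whose rho was then 0.0946.

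In the ABTAA arm (30 libraries, no test) rho with Adipoq was 0.89 for Cfd, 0.74 for Retn, 0.69 for Car3, 0.63 for Cidec, 0.54 for Thrsp, 0.42 for Hp, 0.41 for Plin1 and 0.29 for Fabp4. Without E6 and C6, the farthest from the median in centred Adipoq, it was 0.82 for Cfd, 0.27 for Thrsp, 0.30 for Hp and 0.08 for Fabp4. Without D6 and O_11, the highest in Adipoq, these 4 had 0.88, 0.53, 0.44 and 0.21. All 36 pairs among the 9 genes had a positive rho in each arm, with medians of 0.42 (ABTAA), 0.69 (Veptp) and 0.63 (Pdgfb), over libraries that also share their depth. The members were also ranked by rho with Adipoq among all genes past the filter. In the Veptp arm Cfd, Hp, Car3 and Fabp4 ranked 1 to 4, Thrsp 7 and Cidec 34 of 11916, and in the Pdgfb arm Cfd, Thrsp, Car3 and Fabp4 ranked 2, 6, 7 and 217 of 10923. In the ABTAA arm Cfd and Car3 ranked 1 and 3 of 9579, but Thrsp 49, Hp 254 and Fabp4 884. The gene outside the 9 with the highest rho was Fasn (0.74), fatty acid synthase, in the ABTAA arm, Sh3bp5l (0.72) in the Veptp arm and Sept10 (0.88) in the Pdgfb arm. The 10 such genes highest in each arm shared none between any 2 arms.

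**Figure D4:**
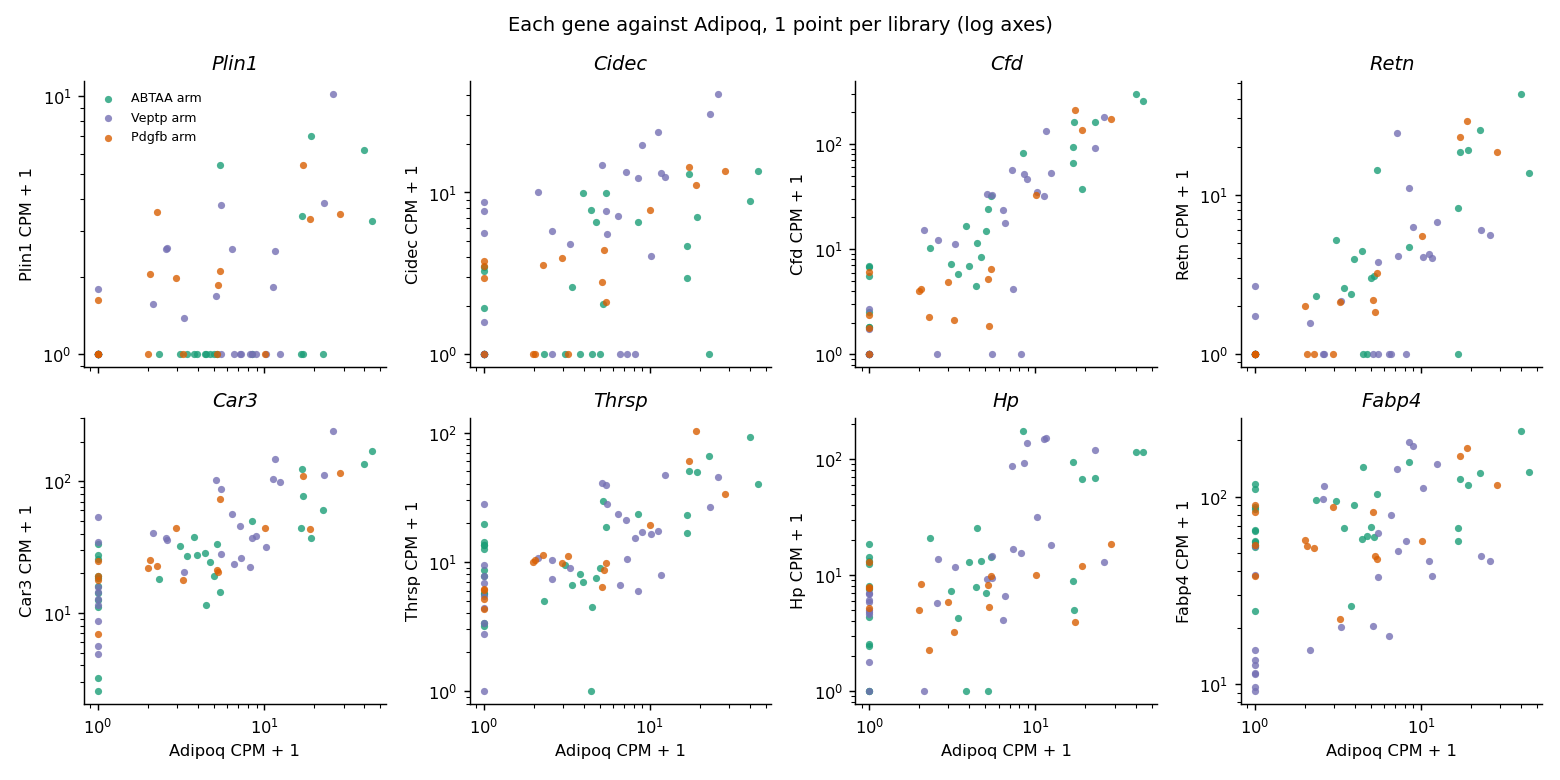
Level of 8 genes against that of Adipoq in the 75 libraries (log axes, CPM + 1, color by arm). Cfd rises most steeply and with the least scatter, Retn, Car3 and Thrsp rise from libraries with some Adipoq on, and Fabp4 and Hp are also high in libraries with little Adipoq.

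Other genes of fat cells did not all follow. Of a list of 16 (among them Lipe, Lpl, Cd36 and Acsl1, which kidney cells also use), 11 could be tested in the Veptp and 10 in the Pdgfb libraries, and none followed Adipoq past the threshold. Leptin (Lep) had 9 counts in the series and at most 1 in a library. Adig, a gene of fat cells, had rho = 0.46, 0.40 and 0.52 with Adipoq in the ABTAA, Veptp and Pdgfb arms on 14, 24 and 20 counts. Of 12 genes of fatty acid synthesis, in which THRSP works, 11 were tested in each arm and none followed Adipoq past the threshold. By rho alone, Fasn ranked 2 (0.74) and Srebf1 12 (0.64) of 9579 genes in the ABTAA arm, and Acly 13 (0.60) of 11916 in the Veptp arm. None of the 12 was among the 10 genes outside the members ranked highest in the Pdgfb arm.

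Of 10 genes of brown fat, which burns fatty acids for heat, Ucp1 and Cidea were looked at more closely after their values were seen. Ucp1, the uncoupling protein that defines brown fat cells, had a count in 42 of 75 libraries and 274 counts in all. In the 11 libraries with at least 10 Adipoq counts, Ucp1 had a count in 10 and ran from 0 in O_9 to 69 in F12. Its rho with Adipoq was 0.43, 0.52 and 0.65 in the ABTAA, Veptp and Pdgfb arms. Cidea, a lipid droplet protein of brown fat cells, had 1 to 46 counts in all 11. It was 1 of the 10 genes with a positive slope in the Veptp arm (0.89 ± 0.16, adjusted p = 8.7e-04, edgeR), and the only 1 of 5 tested among the 10, but it missed the threshold without H_8 (0.71, adjusted p = 0.083). The others did not move as one in the Veptp arm, where rho with Adipoq was 0.79 for Slc36a2, an amino acid transporter, 0.19 for Cpt1b, 0.01 for Cox8b, -0.11 for Fabp3, -0.15 for Ppargc1a and -0.17 for Cox7a1. In the Pdgfb arm it was 0.75 for Elovl3, a fatty acid elongase with 9 counts, 0.63 for Cox8b, 0.57 for Slc36a2, 0.37 for Dio2, 0.24 for Ppargc1a, 0.05 for Cox7a1, 0.02 for Fabp3 and -0.01 for Cpt1b. The median slope of the 5 tested in the Veptp arm was 0.00291, against -0.00179 over all genes.

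The remaining 3 genes with a positive slope in the Veptp arm were uroplakins, the membrane proteins of the urothelium that lines the renal pelvis and ureter. Upk1a had a slope of 0.59 ± 0.10, Upk3a of 0.69 ± 0.12 and Upk1b of 0.66 ± 0.12 (adjusted p = 3.5e-04, 5.3e-04 and 0.0034, edgeR). All 3 were highest in G_3, at 54.3, 40.5 and 56.1 CPM, the library that was also highest in Plin1, Cidec and Car3. Without G_3 none of the 3 passed (Upk1a 0.52, adjusted p = 0.20, Upk3a 0.56, 0.48 and Upk1b 0.48, 0.67). With any other single library left out Upk1a passed, and Upk3a and Upk1b passed unless they failed the filter, as in some of these fits. Without both G_3 and H_8, Upk3a passed (1.08, adjusted p = 0.0013, edgeR) and Upk1a (0.69, 0.0998) and Upk1b (0.78, 0.078) did not. None passed without the name form or with the library number as a block. The 3 uroplakins did not pass the filter in the other arms. Kazn was the 1 gene with a negative slope (-0.26 ± 0.05, adjusted p = 0.017), and it missed the threshold without G_3 (-0.21, adjusted p = 0.40) and without 3 other libraries, each left out singly.

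Markers of other tissues near the kidney were looked at in the same way. Of 9 adrenal genes, Th and Dbh were at 0 in every library and Cyp11b1 had 1 count in the series, while Star was counted in 67 libraries. Of 7 pancreas genes, 6 had at most 1 count in any library, while Cela2a was counted in 56. None of the adrenal or pancreas genes could be tested. No gene that could be tested on the lists for other cell types had a slope on Adipoq past the threshold in either arm. These were all 12 endothelial, 8 macrophage and 10 kidney genes, and 8 of 10 liver genes. Of the 13 acute phase genes 7 and 6 could be tested in the Veptp and Pdgfb arms, and of the 5 red blood cell genes 5 and 4. Of 10 skeletal muscle genes 1 and 5 could be tested, and 1 of 6 lymphoid and 2 of 5 mesothelial genes in each arm.

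In the 11 libraries with at least 10 Adipoq counts, 4 from CL and 7 from UUO kidneys, the genes were set against Adipoq as counts per Adipoq count. The ratio is used between libraries, not between genes, since counts were not divided by transcript length. For Cfd it lay between 3.0 in H_6 (95% interval for counting error alone, 1.89 to 4.92) and 13.0 in A5 (7.05 to 26.6). Plin1 lay between 0 and 0.37. The ratios were also read by the form of the library name, which goes in part with the arm, since the joined names hold no library of the Pdgfb arm. Retn had 0.64 to 1.57 counts per Adipoq count in the 5 libraries with plain names and 0.19 to 0.46 in the 6 with joined names, with no overlap. Fabp4 had 4.18 to 10.1 against 1.78 to 4.32, and Thrsp 1.18 to 5.70 against 0.64 to 1.78, with some overlap. Car3, Cidec and Hp lay the other way, with medians of 4.18, 0.57 and 0.61 under plain and 8.74, 1.24 and 5.60 under joined names, and their ranges overlapped. The part of the name form or the arm in these ratios was not tested.

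Hp differed from the others in this ratio. In the 4 CL libraries, A5, E6, G_3 and D10, it had 0.18, 0.25, 0.48 and 0.64 counts per Adipoq count. In the UUO libraries it had 0.61 in F12, 2.63 in O_11, 2.93 in D6, 5.36 in H_8, 5.85 in O_9, 14.0 in H_3 and 14.5 in H_6. F12 lay within the range of the CL libraries and the other 6 UUO libraries lay above it.

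**Figure D5:**
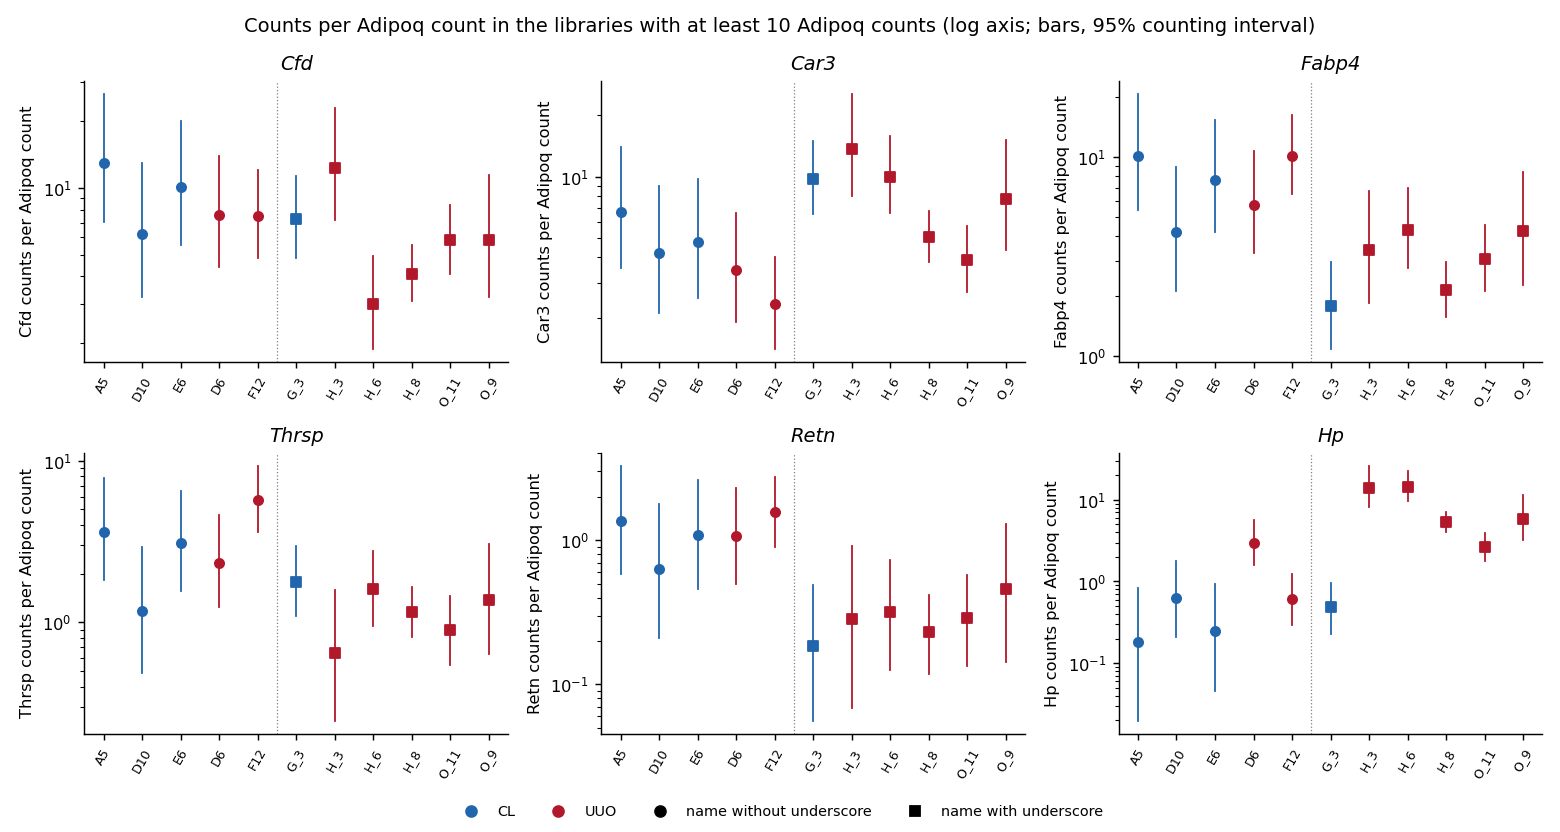
Counts of 6 genes per Adipoq count (vertical axis, logarithmic, with 95% counting intervals as bars) in the 11 libraries with at least 10 Adipoq counts, blue for CL and red for UUO, circles for plain and squares for joined names. Retn lies above 0.6 left of the dotted line and under 0.5 right of it, and Hp runs from 0.18 in A5 to 14.5 in H_6.

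The comparisons of the study were then read gene by gene in the Veptp arm, with and without Adipoq as a covariate. In Veptp WT mice, Hp ran from 0 to 12.7 CPM (median 5.60) in 7 CL kidneys and from 4.04 to 149 CPM (median 88.0) in 8 UUO kidneys. Only H_4 and H_5, without any Adipoq count, lay within the range of the CL group. Hp rose by 3.75 ± 0.81 on the log2 scale (adjusted p = 0.0010, edgeR), and by 2.7 with Adipoq as a covariate (adjusted p = 6.3e-04). It was the only 1 of the 6 genes tested that passed, where 18.4% of all genes did. In the plain-named libraries alone Cfd (2.59) and Fabp4 passed as well, and with the library number as a block Fabp4 did (0.76, adjusted p = 0.031, edgeR). With Adipoq as a covariate Thrsp also passed, at -1.48 (adjusted p = 0.020), against -1.04 without it (adjusted p = 0.28). Hp passed with each library left out.

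In Veptp iECKO mice, Hp ran from 0 to 13.5 CPM (median 4.32) in 6 CL and from 3.58 to 117 CPM (median 12.5) in 8 UUO kidneys. Its log2 fold change was 2.35 ± 0.89 (adjusted p = 0.11, edgeR), and 0.75 without H_8, the library with the most Adipoq counts. With the name form as a covariate it was 2.60 (adjusted p = 0.037), and in a fit of all 12 groups 2.43 (adjusted p = 0.031), both past the threshold. It was 1.26 with Adipoq as a covariate, 1.12 thinned to equal depth, 0.95 without the numbers 3, 4, 7 and 8 and 0.38 in the plain-named libraries alone (adjusted p from 0.33 to 0.96). In the joined-named libraries alone it was 3.05 (adjusted p = 0.12, edgeR), and with the library number as a block 1.21 (adjusted p = 0.30). In the comparison as planned none of the 6 genes passed, where 7.96% of all genes did, and 1 had an unadjusted p under 0.05. Between Veptp iECKO and Veptp WT no gene passed in CL or in UUO kidneys (0% of all genes tested in both). In UUO kidneys, Hp was the only member with an unadjusted p under 0.05 (log2 fold change -1.63 ± 0.67, adjusted p = 1.0, edgeR), and in CL kidneys there was none. DESeq2 and the edgeR exact test called no member in these 3 comparisons either. In the plain-named libraries alone the Hp difference in UUO kidneys was -2.99 (adjusted p = 0.00602), and in the joined-named ones -1.08 (adjusted p = 0.86). The difference between the UUO responses of the genotypes did not pass for any of the 6 genes (Hp -1.40 ± 1.20, adjusted p = 1.0).

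Other acute phase genes rose with Hp between the kidneys of Veptp WT mice. Of 13 on the list, 7 were tested in the Veptp arm, and 7 rose from CL to UUO in Veptp WT and 6 in Veptp iECKO, with medians of 4.22 and 3.46 log2 units against -0.01 and 0.01 over all genes. In Veptp iECKO mice Hp itself did not pass, and between genotypes in UUO kidneys none of the 7 passed, with a median of -0.39. The summed level of all 13 ran from 75.1 to 177 CPM in Veptp WT CL and from 1772 to 3588 CPM in Veptp WT UUO. Unlike Hp, none of the 7 followed Adipoq. Macrophage genes also rose in Veptp WT UUO kidneys (7 of 8), beside Fabp4 at 1.07 ± 0.63 (adjusted p = 0.27), and 1 of 12 endothelial genes passed, the latter a smaller share than the 18.4% of all genes. Their part in the Hp and Fabp4 values was not tested.

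In the Pdgfb arm, 2 genes passed between the UUO and CL libraries of Pdgfb WT mice. Kidneys of 2 sham-operated mice are among these CL libraries, and the labels do not mark which. Cfd was at 1.39, 3.14, 5.54 and 211 CPM in CL libraries F4, B5, E4 and A5, and at 0.793, 3.92, 4.17 and 5.02 CPM in the UUO libraries. A5 stood alone, and the other 3 CL libraries overlapped with the UUO libraries. Whether A5 is a sham kidney is not known. The fitted log2 fold change was -3.98 ± 1.44 (adjusted p = 0.032, edgeR), -0.14 without A5 (adjusted p = 0.97) and -0.50 with Adipoq as a covariate (adjusted p = 0.70). Without B11, D11, C12 or D12 the value was about as large (-4.27, -4.14, -3.52 and -4.07) and missed the threshold (adjusted p from 0.0504 to 0.084), as it did in a fit of all 12 groups (-3.99, adjusted p = 0.090).

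Car3 was at 23.7, 24.1, 72.0 and 109 CPM in the CL kidneys of these mice, and at 5.95, 18.2, 20.2 and 43.1 CPM in their UUO kidneys. The highest UUO library, D12, lay above the 2 lowest CL libraries. Car3 fell by 1.5 ± 0.51 on the log2 scale (adjusted p = 0.023, edgeR), by 1.03 without A5 (adjusted p = 0.15) and by 0.79 with Adipoq as a covariate (adjusted p = 0.053). It also missed without E4 (adjusted p = 0.058) or C12 (adjusted p = 0.086), and in a fit of all 12 groups (a log2 fold change of -1.44, adjusted p = 0.23). Skeletal muscle genes, another source of Car3, fell at the same time, 5 of 5 tested out of 10, and their sum ran from 103 to 165 CPM in CL and from 5.88 to 29.5 CPM in UUO libraries. None of the 10 was at 0 across the series, and Pvalb, which distal tubules also express, had more counts than any other (1674). Kidney genes fell too, 8 of 10, as did 7 of 10 other fat cell genes and 4 of 4 brown fat genes tested. Their part in the Car3 value was not tested. These 2 calls out of 4 genes tested stood where 37.3% of all genes passed.

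Thrsp passed in 1 comparison. Among UUO kidneys its level was 5.02, 5.16, 5.36 and 8.82 CPM in the Pdgfb WT libraries. The Pdgfb iKO libraries stood at 3.34, 7.69, 10.1 and 102 CPM, where F12 was the highest and the other 3 overlapped with Pdgfb WT. Its log2 fold change between iKO and WT was 2.65 ± 0.71 (adjusted p = 0.010, edgeR), 0.45 without F12 (adjusted p = 0.73), 2.49 in a fit of all 12 groups (adjusted p = 0.11) and 0.83 with Adipoq as a covariate (adjusted p = 0.31). Cfd had 3.68 ± 1.44 in the same comparison (adjusted p = 0.077) and turned to -1.76 without F12 and to -0.49 with the covariate. Thrsp was the only call among 4 genes, where 18.6% of all genes passed. In the same comparison 7 of 10 kidney genes, 4 of 10 other fat cell genes, 3 of 4 brown fat genes, 3 of 4 red blood cell genes and 2 of 11 fatty acid synthesis genes were higher. Lower were 5 of 6 acute phase genes, 4 of 8 macrophage genes and 4 of 12 endothelial genes. Their part in the Thrsp value was not tested.

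The other comparisons of the Pdgfb arm gave no call among the 4 genes by edgeR's quasi-likelihood test, by its exact test or by DESeq2, and none had an unadjusted p under 0.05. In Pdgfb iKO mice 6.36% of all genes passed between UUO and CL kidneys, and between iKO and WT 0% did in CL kidneys. The difference between the UUO responses of the genotypes was 2.98 ± 1.1 for Thrsp (adjusted p = 0.098, edgeR) and 4.03 ± 1.89 for Cfd (adjusted p = 0.21). Hp did not pass the filter in this arm and stayed between 1.28 and 17.5 CPM in all 16 libraries, with 4.90 to 11.9 CPM in Pdgfb WT UUO. In those same UUO kidneys 6 of 6 other acute phase genes tested rose, with a median of 3.71 log2 units against 0.04 over all genes.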

How the data were processed

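RNA of 75 mouse kidney libraries was prepared by the authors with a Smart-seq3 protocol in 4 wells per sample, merged, mapped with STAR 2.7.3a to mm10, freed of duplicates with UMI-tools 1.1.4 and summarised with featureCounts. The deposited table holds raw counts per gene, whole numbers with no normalization. The methods count a single animal as 1 unit, so libraries of a group stand for separate mice, while CL and UUO libraries come largely from the same mice.

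Levels were counts scaled by TMM library sizes (CPM). Each arm was fitted with edgeR 4.0.16 (quasi-likelihood, filterByExpr, Benjamini-Hochberg over all genes tested, threshold 0.05), not with the exact test the authors used, which was an alternative together with DESeq2 1.42.0. Slopes on Adipoq had the group, and in the Veptp arm the form of the library name, as further terms. The scripts were tested on simulated data. Counting intervals are exact and cover counting error only, and their counts are of transcripts with molecular identifiers. In ABTAA mice, where all 3 same-numbered pairs of CL and UUO libraries deviated together (correlation 0.157 to 0.389), the numbers were taken as pairs.

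The members and the gene lists were chosen with earlier results of these data known. Named genes were the 9 members, the genes outside them most like Adipoq and up to 4 genes a list. Lep, Adig, Ucp1, Cidea, Kazn, the uroplakins and the adrenal, pancreas and muscle genes were named after their values were seen. Alternatives concerned scaling, filter, depth, pseudocount, name form, pairing and single libraries. Promoters of Car3, Hp and Fabp4 were not analysed here.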

Additional observations from a re-analysis of the deposited data

Results flagged for a closer look

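Of 107 sets of values, each a gene in a group of 4 to 8 libraries, 15 held a library far from the others of its group by Dixon's test. The test assumes normal values, and here a lone count among libraries at 0 is flagged whatever its size. The 15 can therefore not be set against a chance rate. Of the droplet genes, Plin1 stood out in B7 of IgG CL (4.44 CPM) and G_3 of Veptp iECKO CL (9.20 CPM, 10 counts), with the other libraries at or near 0, and Cidec in E6 of ABTAA CL (12.1 CPM). Cfd stood out in G_3 (180 CPM, the other 5 libraries at 0) and in F12 of Pdgfb iKO UUO (134 CPM), and as the lowest of its group in A8 of Veptp WT CL (1.69 CPM) and C12 of Pdgfb WT UUO (0.793 CPM). Retn was 4.6 CPM in G_3 (5 counts) and 1.19 CPM in D11 of Pdgfb WT UUO, with the other libraries of both groups at 0. The Plin1 value in B7 was 1 count and the Retn value in D11 was 2 counts, both under the limit of 3 that a count of 0 allows. Fabp4 was high in A5 of Pdgfb WT CL (164 CPM) and D10 of Pdgfb iKO CL (115 CPM) and low in P_2 of IgG CL (23.6 CPM). Thrsp was low in A6 of IgG CL (0 CPM) and high in D12 of Pdgfb WT UUO (8.82 CPM), and Hp was high in H_8 of Veptp iECKO UUO (117 CPM). G_3, A5, D10, E6, F12 and H_8 were all among the 11 libraries with at least 10 Adipoq counts.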

How the results depend on the processing

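Each single-gene value followed in the text was set against each of its alternatives. Of these comparisons 939 were counted as unchanged, 38 no longer passed, 11 newly passed, 10 moved by more than the spread and 3 reversed. Unchanged meant the same direction and side of the threshold for tested values. For correlations it meant the same sign and a shift within their sampling spread. For the untested ABTAA fold changes it meant a shift within the larger group SD, whatever the sign. Sign changes of those fold changes are therefore not among the 3 reversed. The rho of Hp with Adipoq in the Pdgfb arm was -0.11 without the 2 libraries highest in Adipoq. Of the 32 other member fold changes, none called, 26 took the other sign in at least 1 alternative and 5 were called in at least 1. In Veptp WT mice (1 member called between kidneys), 2 were called with Adipoq as a covariate and 3 in the plain-named libraries. In Veptp iECKO mice (0), 1 was called with the name form as a covariate and 1 in a fit of all 12 groups, and between genotypes in UUO kidneys (0) 1 in the plain-named libraries. In Pdgfb WT mice (2, Cfd and Car3), 1 was called without TMM (Cfd), 1 by the exact test (Car3), 1 in a fit of all 12 groups (Retn, with both lost), 5 without the filter, and 0 with Adipoq as a covariate, thinned to equal depth or by DESeq2, with 0 to 3 when single libraries were left out. In Pdgfb iKO mice (0), 1 was called without the filter. Between Pdgfb genotypes in UUO kidneys (1, Thrsp), Retn alone was called in the 12-group fit, 4 members were called without the filter, 0 with the covariate, thinned or by the exact test, and 1 to 3 with single libraries left out (without F12 Fabp4 alone, not Thrsp), and DESeq2 gave no adjusted p for Thrsp. The Cfd log2 fold change there was -0.49 with the covariate and ran from -1.76 to 4.12 with single libraries left out. Of the 6 genes that followed Adipoq in the Veptp arm, 2 were called in CL libraries alone, 2 thinned, 2 without the numbers 3, 4, 7 and 8 and 5 without G_3 and H_8. Of the 11 genes called in all, the counts were 136 without the filter, 6 in UUO libraries alone, 2 thinned, 5 without the name form, 2 without those numbers, 6 without G_3 and H_8, and from 7 (without G_3) to 35 (without H_8). In the Pdgfb arm (3 members and no other gene), 6 members of 55 genes were called without the filter, 1 of 1 in CL libraries, 0 of 1 in UUO libraries, 0 of 0 without A5 and F12, and 2 to 5, of 2 to 5 genes, with single libraries left out. Apart from the filter, thinning and smaller sets, the cause was not tested. The low counts of Adipoq limit every slope.

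Libraries of the Veptp arm shared only a number: same-numbered CL and UUO libraries had correlations from 0.057 to 0.417, and 4 of 8 CL and 6 of 8 UUO libraries correlated best with their own number. With the number as a replicate block, 2 members, Hp and Fabp4, were called between kidneys of Veptp WT mice. Of all genes 2 followed Adipoq, Cfd (slope 1.38, adjusted p = 1.0e-05) and Car3 (0.60, adjusted p = 0.0027), while Cidec (0.96, adjusted p = 0.25), Thrsp (0.61, 0.25), Hp (0.90, 0.26) and Fabp4 (0.35, 0.50) had slopes near the unblocked ones and did not pass. Hp in Veptp iECKO mice was 1.21 (adjusted p = 0.30). In ABTAA mice, Cfd moved from 0.94 to 0.23.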

Other observations

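Chosen after seeing the data, the level of each gene was compared between the CL and UUO library of the same number in the Veptp arm, over 8 numbers. Cfd had r = 0.76 (exact permutation test, two-sided, p = 0.042, adjusted p = 0.15 over the 9 genes) and rho = 0.68 (exact permutation test, p = 0.087, adjusted p = 0.22). Car3 also had r = 0.76 (exact permutation test, p = 0.023, adjusted p = 0.15), with r = 0.39 without the 2 numbers farthest from the median, and no gene passed after adjustment.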
